A study of Mus musculus with 11 samples.

Results

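Cholesterol and fatty acid synthesis were described through 34 genes of the count table, chosen by name: 17 enzymes of the sterol branch, 12 enzymes of the fatty acid branch and 5 regulators of sterol sensing. They are 34 of the 24515 gene symbols counted. All 34 passed the filter on low counts. Together they took between 0.506% and 1.51% of the counts of a library.

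The sterol branch runs from acetyl-CoA through mevalonate to the isoprenoids, joins these into squalene and closes squalene into lanosterol, which a chain of demethylases, reductases and desaturases turns into cholesterol. The fatty acid branch carboxylates acetyl-CoA to malonyl-CoA, builds palmitate from it with NADPH, and lengthens and desaturates the product. Both branches are induced by the SREBP transcription factors, which SCAP escorts out of the endoplasmic reticulum when sterols are low and which the INSIG proteins hold back when sterols are high. In the lung the alveolar type 2 cell makes surfactant from these lipids.

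The libraries came from mice lacking Gprc5a (Gprc5a-/-), a receptor gene of the lung epithelium, in tumors and normal lungs alike. Every mouse had received NNK, a nitrosamine of tobacco, by intraperitoneal injection of 50 mg per kg, given 3 times weekly over 8 weeks. The 3 tumors tagged ADN came from mice m335, m368 and m350, the 3 tagged ADC from mice m335, m372 and m378, and the 5 normal lungs were the tissue next to the tumors in the same 5 mice. The labels do not spell out either tag. Mouse m335 was taken 4 months after NNK, mouse m368 after 6 months and the others after 7 months. No lung without NNK and no wild-type lung was analysed here, so tumors are set against exposed lungs of the same genotype. Values are listed below in the order m335, m368 and m350 for ADN tumors, m335, m372 and m378 for ADC tumors, and m335, m368, m350, m372 and m378 for normal lungs.

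Libraries held 19938822 to 46987587 counts, and Gprc5a had 0 to 19 counts in each. Levels are CPM, counts brought to a common library size with TMM scaling. They are not divided by length, so they are compared between libraries and not between genes. Lung epithelium was plain in every library, with a summed level of 11 alveolar type 2 genes of at least 38160.3 CPM. Some libraries stood apart. The ADC tumor of mouse m335 had this lowest alveolar type 2 sum, against 111562 to 139998 CPM in the other tumors and 43703 to 58988 CPM in normal lungs. It also had the highest T cell sum, 471 CPM, against 29.0 to 67.2 CPM in the other tumors and 86.9 to 270.3 CPM in normal lungs. The normal lung of mouse m368 had 775 CPM of adipocyte genes, against 72.6 to 145 CPM in tumors and 158 to 258 CPM in the other normal lungs. It also had 9573 CPM of 7 alveolar macrophage genes, most of it from Chil3 (8713 CPM). Their sum was 440.3 to 3221 CPM in tumors and 625 to 1399.9 CPM in the other normal lungs. The normal lung of mouse m335 carried 666 CPM of skeletal muscle genes, and that of mouse m372 had a proliferation sum of 173 CPM, against 38.9 to 47.5 CPM in the other normal lungs.

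Promoters are shown for 5 genes of both branches, to set windows with and without the motifs that go with SREBP binding side by side. SREBP binds the sterol regulatory element together with the factors NF-Y, at CCAAT boxes, and Sp1, at GC boxes. RefSeq (GRCm38.p6) held a promoter for 28 of the 34 genes, 38 windows in all, each of 300 bases from 250 before to 50 after the start of transcription. The 5 windows read 5′ to 3′ on the strand of the gene. Capitals mark the matches to TCACNCCAC (sterol regulatory element) and to CCAAT on either strand, so that ATTGG is a CCAAT box read from the other strand.
Hmgcs1, first enzyme of the branch in this list, chr13:119690101-119690400, plus strand: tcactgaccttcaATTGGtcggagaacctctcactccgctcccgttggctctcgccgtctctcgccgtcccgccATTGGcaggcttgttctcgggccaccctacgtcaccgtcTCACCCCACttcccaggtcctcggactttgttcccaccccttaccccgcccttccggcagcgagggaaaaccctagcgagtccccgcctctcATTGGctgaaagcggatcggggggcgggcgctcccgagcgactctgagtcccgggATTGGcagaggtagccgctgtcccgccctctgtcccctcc
Mvk, mevalonate kinase, chr5:114444019-114444318, plus strand: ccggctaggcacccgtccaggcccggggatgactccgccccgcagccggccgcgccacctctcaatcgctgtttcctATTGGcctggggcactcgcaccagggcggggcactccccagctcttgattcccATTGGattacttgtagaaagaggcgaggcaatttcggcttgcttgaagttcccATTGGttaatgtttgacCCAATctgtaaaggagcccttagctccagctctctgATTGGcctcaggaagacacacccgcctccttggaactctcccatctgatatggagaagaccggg
Idi1, isopentenyl diphosphate isomerase, chr13:8885356-8885655, plus strand: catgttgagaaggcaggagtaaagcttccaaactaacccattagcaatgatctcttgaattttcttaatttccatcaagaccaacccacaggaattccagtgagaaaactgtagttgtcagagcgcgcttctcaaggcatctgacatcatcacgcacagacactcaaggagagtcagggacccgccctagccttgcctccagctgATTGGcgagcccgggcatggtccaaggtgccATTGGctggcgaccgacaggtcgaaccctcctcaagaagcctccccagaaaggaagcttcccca
Fasn, fatty acid synthase, chr11:120824498-120824797, minus strand: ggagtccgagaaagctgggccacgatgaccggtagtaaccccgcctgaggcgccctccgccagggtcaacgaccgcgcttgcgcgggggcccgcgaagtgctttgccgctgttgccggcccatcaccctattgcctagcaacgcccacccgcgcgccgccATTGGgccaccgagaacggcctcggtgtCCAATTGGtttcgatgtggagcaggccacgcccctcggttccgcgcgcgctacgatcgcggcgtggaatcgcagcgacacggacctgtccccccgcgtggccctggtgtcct
Me1, malic enzyme, chr9:86695865-86696164, minus strand: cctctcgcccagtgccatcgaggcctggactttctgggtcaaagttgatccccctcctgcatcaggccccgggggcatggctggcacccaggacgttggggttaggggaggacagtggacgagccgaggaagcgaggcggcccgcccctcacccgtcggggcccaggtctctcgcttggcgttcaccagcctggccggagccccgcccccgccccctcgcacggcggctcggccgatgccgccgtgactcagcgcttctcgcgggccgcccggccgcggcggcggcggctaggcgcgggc

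The Hmgcs1 window held the only match to TCACNCCAC among the 28 genes, with its first base 137 bases before the start on the plus strand. That letter string stood in 1.24% of all 32851 windows of the table. A CCAAT box stood in 25 of the 38 windows (65.8%), against 37.4% of all windows. All 14 matched sterol enzymes had at least 1 window with a CCAAT box, the Mvk window had 5 matches, and 6 of 9 matched fatty acid enzymes had such a window. In the Fasn window 2 of the 3 matches overlap on opposite strands. The Me1 window shown had none. The GC box, searched as GGGCGG on both strands and not marked, stood in 28 of the 38 windows (73.7%) and in 35.7% of all windows. These are matches of letters, and binding was not measured.

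Tumors had lower transcript levels of the sterol branch than normal lungs. Of its 17 enzymes 12 fell and 0 rose, and the 5 that did not pass had log2 fold changes from -1.05 (Sc5d) to 0.21 (Ebp). The median log2 fold change was -1.10 for the 17 enzymes and -0.03 over all genes tested. In the fatty acid branch 2 of 12 enzymes fell, 1 rose and the median was 0.25. Insig1 was the only regulator of 5 to pass, and it fell. In all 15 of the 34 genes (44.1%) fell and 1 (2.94%) rose, where 7.91% of the 15175 genes tested fell and 3.68% rose. Calls here and below are from edgeR's quasi-likelihood test with the mouse as a block, two-sided, at a Benjamini-Hochberg adjusted p under 0.05 over all genes tested, and errors of log2 fold changes are standard errors (SE). In 10 of the 34 genes every tumor lay below every normal lung, and in 1 every tumor lay above; over all genes tested these shares were 7.91% and 3.55%. In these bulk samples fewer cells of a type and less RNA per cell cannot be told apart.

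**Figure D1:**
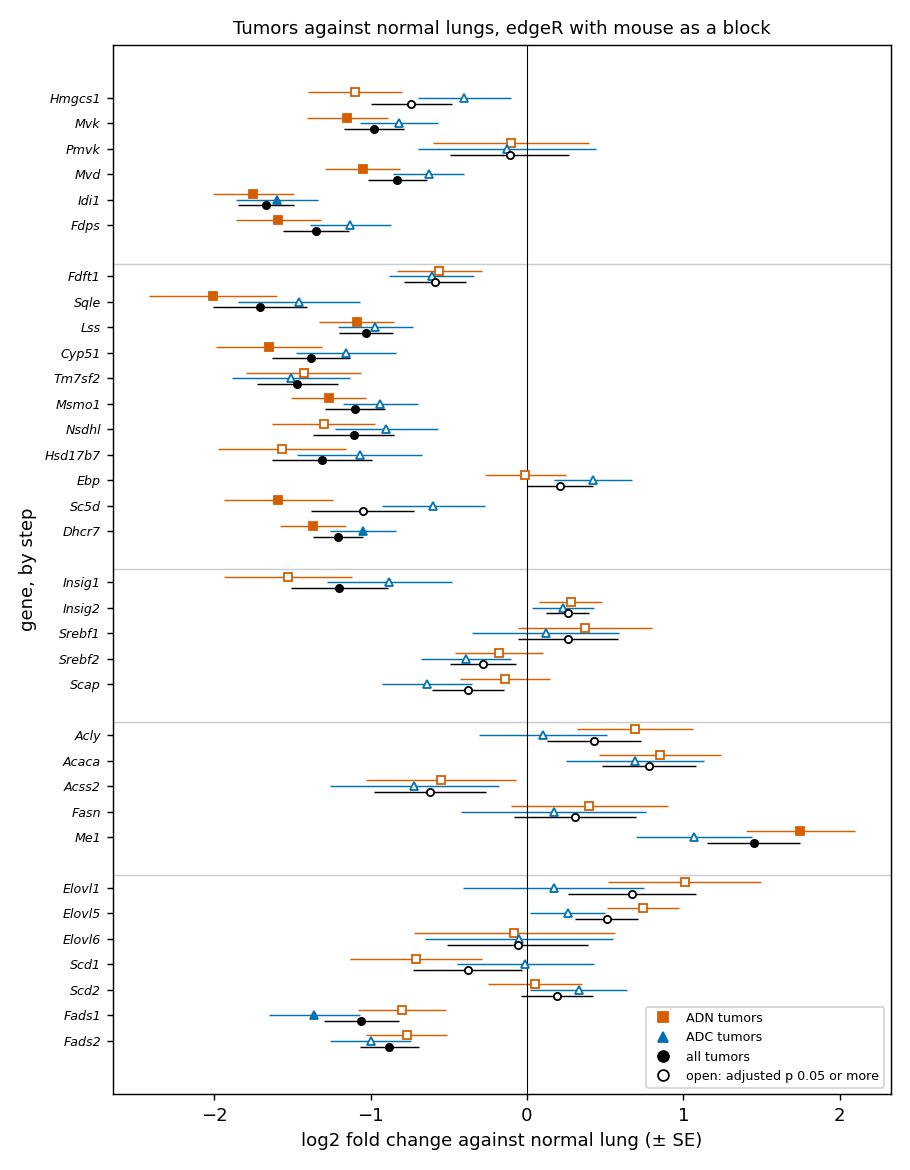
Log2 fold change (x axis, ± SE) of each of the 34 genes (y axis, grouped by step) in ADN tumors, ADC tumors and all tumors against normal lungs. Filled symbols passed the adjusted threshold. For all tumors the sterol enzymes other than Pmvk and Ebp lie between -1.71 and -0.59, and the fatty acid enzymes lie on both sides of 0 with Me1 highest at 1.45 for all tumors.

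The first steps of the branch make and activate the isoprenoid units. Idi1 (chromosome 13, 8885606 to 8892396, GRCm38), the isomerase that sets the balance of the isoprenoid building blocks, stood at 13.8, 29.0 and 40.1 CPM in ADN tumors and at 17.4, 30.0 and 16.4 CPM in ADC tumors. Its normal lungs stood at 58.4, 112, 92.1, 70.5 and 65.5 CPM. Every tumor lay below every normal lung, and the log2 fold change was -1.67 ± 0.18 (adjusted p = 0.00104), or 3.19-fold lower. Fdps (chromosome 3, 89093588 to 89101967), which makes farnesyl diphosphate, had 22.1, 58.1 and 37.0 CPM in ADN tumors, 35.0, 44.1 and 27.2 CPM in ADC tumors and 79.7, 133, 119.9, 68.8 and 89.0 CPM in normal lungs. Again the groups did not overlap, and the log2 fold change was -1.35 ± 0.21 (adjusted p = 0.00415). Near-identical copies are annotated for Idi1 (3) and Fdps (5) and are not rows of the count table, so reads from them may be counted here.

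Mvk, mevalonate kinase, had 10.5, 21.4 and 16.3 CPM in ADN tumors, 15.3, 16.2 and 16.7 CPM in ADC tumors and 35.7, 35.2, 34.1, 24.5 and 30.3 CPM in normal lungs. No tumor reached the lowest normal lung, and the log2 fold change was -0.98 ± 0.19 (adjusted p = 0.0121). Mvd, the decarboxylase that follows, had 19.4, 42.6 and 28.6 CPM in ADN tumors, 31.6, 29.4 and 27.9 CPM in ADC tumors and 60.0, 73.3, 48.2, 39.3 and 49.0 CPM in normal lungs. Here the ADN tumor of mouse m368 lay above the normal lung of mouse m372, every tumor lay below its own normal lung, and the log2 fold change was -0.83 ± 0.19 (adjusted p = 0.0218). Hmgcs1, HMG-CoA synthase and bearer of the sterol element above, ranged from 39.2 to 87.8 CPM in tumors and from 85.2 to 148 CPM in normal lungs, with a log2 fold change of -0.74 ± 0.26 (adjusted p = 0.104). It lay below the own normal lung in 5 of 6 tumors. Pmvk, phosphomevalonate kinase, spread from 57.8 to 125 CPM in tumors and from 35.1 to 198 CPM in normal lungs, with a log2 fold change of -0.11 ± 0.38 (adjusted p = 0.891).

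Squalene and its closure to lanosterol come next. Sqle (chromosome 15, 59315092 to 59331193), squalene epoxidase and a flux-controlling step, had 6.32, 22.2 and 19.7 CPM in ADN tumors, 19.5, 11.4 and 9.23 CPM in ADC tumors and 35.3, 81.4, 45.1, 37.7 and 48.8 CPM in normal lungs. All tumors lay below all normal lungs, and its log2 fold change, -1.71 ± 0.30 (adjusted p = 0.00828), was the lowest of the 34. Lss, lanosterol synthase, had 13.8, 28.2 and 20.4 CPM in ADN tumors, 12.3, 23.3 and 15.5 CPM in ADC tumors and 29.1, 66.8, 44.8, 30.0 and 36.4 CPM in normal lungs. The highest tumor, the ADN tumor of mouse m368, came close to the lowest normal lung without reaching it, and the log2 fold change was -1.03 ± 0.17 (adjusted p = 0.0061). Fdft1, squalene synthase, ranged from 23.6 to 83.5 CPM in tumors and from 43.6 to 83.5 CPM in normal lungs, with a log2 fold change of -0.59 ± 0.20 (adjusted p = 0.093). It shares 18.3% of its exonic bases with Ctsb, a gene on the opposite strand.

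Lanosterol is then stripped of its methyl groups. Cyp51 (chromosome 5, 4080674 to 4104697), lanosterol demethylase, had 11.9, 40.3 and 27.5 CPM in ADN tumors, 29.4, 28.1 and 17.6 CPM in ADC tumors and 57.0, 112, 53.8, 59.3 and 65.8 CPM in normal lungs. The groups were apart, with the normal lung of mouse m368 far above the other normal lungs, and the log2 fold change was -1.38 ± 0.25 (adjusted p = 0.0091). Msmo1, a methylsterol oxidase, had 18.5, 39.4 and 28.9 CPM in ADN tumors, 25.4, 30.4 and 21.2 CPM in ADC tumors and 39.0, 116, 59.3, 49.5 and 59.0 CPM in normal lungs. The groups touched, because the ADN tumor of mouse m368 lay just above the normal lung of mouse m335, and the log2 fold change was -1.10 ± 0.19 (adjusted p = 0.00641).

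Nsdhl, a dehydrogenase of the demethylation complex, had 15.6, 17.5 and 7.53 CPM in ADN tumors, 12.9, 17.6 and 16.1 CPM in ADC tumors and 22.1, 52.2, 32.1, 23.4 and 31.8 CPM in normal lungs. Its groups did not overlap, and the log2 fold change was -1.11 ± 0.26 (adjusted p = 0.0261). Hsd17b7, the reductase that works with it, was low everywhere, with 4.62, 3.87 and 5.74 CPM in ADN tumors, 7.27, 7.81 and 2.68 CPM in ADC tumors and 11.4, 18.8, 11.0, 11.5 and 10.7 CPM in normal lungs. Its groups were also apart, and the log2 fold change was -1.31 ± 0.32 (adjusted p = 0.0293). Tm7sf2, a sterol reductase, had 5.32, 11.3 and 3.82 CPM in ADN tumors, 4.22, 6.64 and 4.62 CPM in ADC tumors and 19.1, 19.4, 14.7, 11.1 and 14.8 CPM in normal lungs. The ADN tumor of mouse m368 lay just above the normal lung of mouse m372, and the log2 fold change was -1.47 ± 0.26 (adjusted p = 0.00835). Tm7sf2 shares 12.1% of its exonic bases with Vps51 on the same strand, Cyp51 3.76% with Akap9 and Lss 3.53% with 4930483K19Rik, both on the opposite strand, and reads there may be counted for either gene.

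The last steps differed from each other. Dhcr7 (chromosome 7, 143823167 to 143848410), which makes cholesterol from its dehydro precursor, had 17.7, 27.9 and 17.1 CPM in ADN tumors, 20.7, 24.7 and 19.6 CPM in ADC tumors and 56.1, 67.7, 42.6, 41.3 and 39.9 CPM in normal lungs. Both kinds of tumor lay below every normal lung, and the log2 fold change was -1.21 ± 0.16 (adjusted p = 0.00223). Sc5d, a sterol desaturase, had 9.03, 10.5 and 13.5 CPM in ADN tumors, 26.6, 15.5 and 11.2 CPM in ADC tumors and 21.6, 38.5, 28.3, 29.1 and 28.2 CPM in normal lungs. It passed in ADN tumors, at -1.59 ± 0.35 (adjusted p = 0.0343), and had -1.05 ± 0.33 (adjusted p = 0.0778) over all tumors, where the ADC tumor of mouse m335 was the one library above its own normal lung. Ebp, a sterol isomerase, ranged from 35.6 to 76.7 CPM in tumors and from 30.8 to 41.3 CPM in normal lungs, with a log2 fold change of 0.21 ± 0.21 (adjusted p = 0.575).

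**Figure D2:**
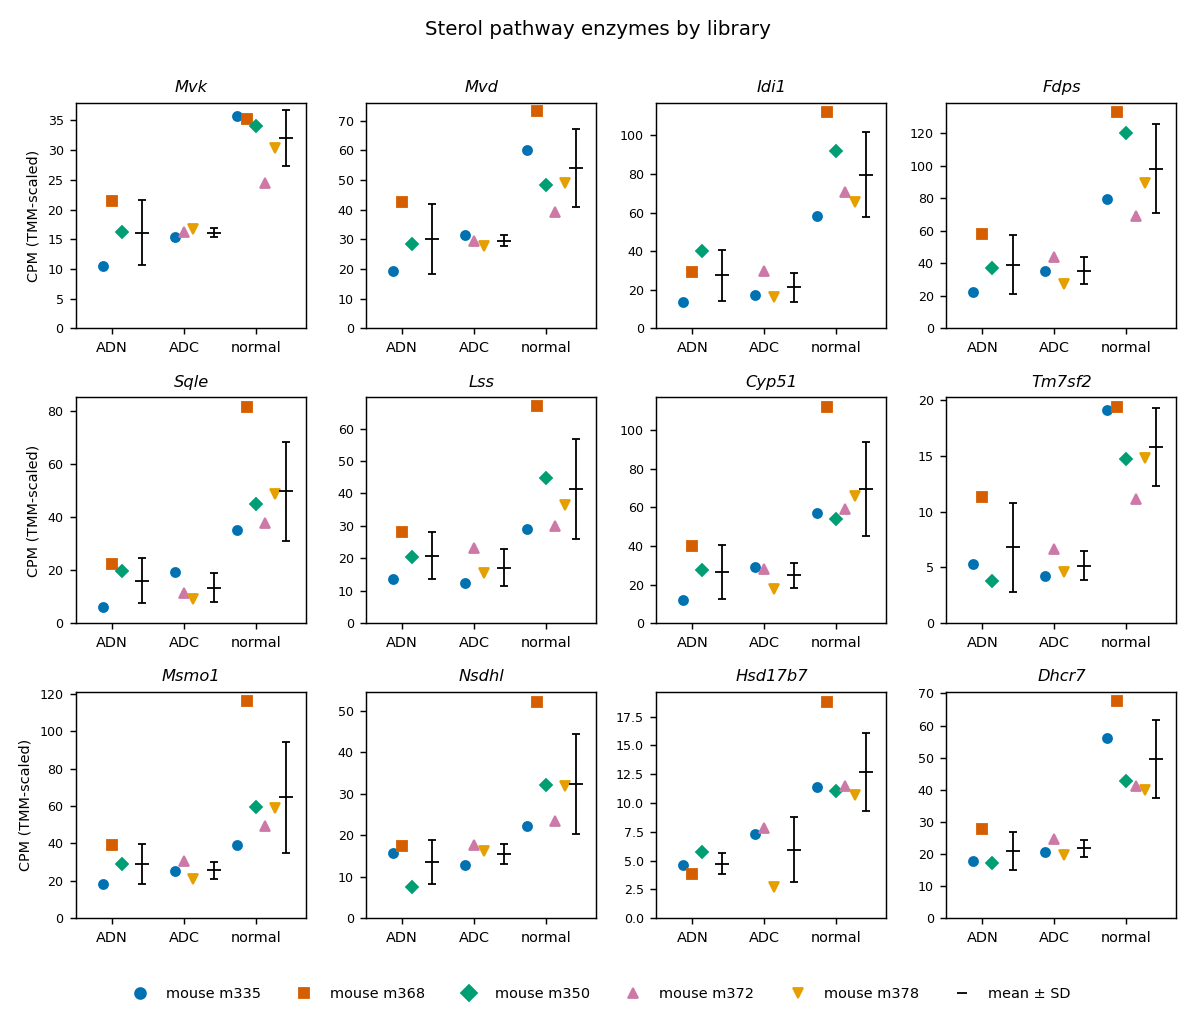
Level in CPM (y axis, from 0) of the 12 sterol enzymes that passed in tumors against normal lungs, by library (x axis, ADN, ADC and normal). Symbols mark the mouse and bars the mean ± SD of a group (n = 3, 3 and 5). Both tumor means lie under the normal mean in every panel, with the normal lung of mouse m368 highest in all panels except Mvk.

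Each tumor taken against its own normal lung gave the same direction. The median log2 difference of the 17 sterol enzymes was -1.35, -1.28 and -1.06 in ADN tumors and -0.92, -0.59 and -1.22 in ADC tumors, where the medians over all genes were -0.04, -0.13, -0.08, -0.01, -0.01 and 0.00. Between 15 and 16 of the 17 enzymes were lower in each tumor. The smallest shift was that of the ADC tumor of mouse m372. Both tumors of mouse m335 share 1 normal lung, so these 6 differences rest on 5 normal lungs.

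The number of genes that passed depended on single libraries. It was 16 of 34 with all libraries and 9 when the normal lung of mouse m335, m350 or m378, the ADN tumor of mouse m350 or the ADC tumor of mouse m378 was left out. With the ADC tumor of mouse m335 left out it was 21, and without the normal lungs of mice m368 and m372, an alternative chosen after seeing the data, it was 7. Calls over all genes moved the same way. With all libraries 558 genes rose and 1201 fell. In the 5 fits that gave 9, 216 to 276 rose and 701 to 843 fell. In the fit that gave 21, 1447 rose and 1930 fell, and in the fit that gave 7, 117 rose and 595 fell. Idi1, Fdps, Lss, Tm7sf2 and Dhcr7 passed in all of these fits. Sqle, Cyp51 and Msmo1 passed whichever single library was left out. Mvk lost its call without the normal lung of mouse m335, Mvd when any of 5 single libraries was left out, Nsdhl when any of 6 was and Hsd17b7 when any of 8 was. In mice other than m335, leaving out either library takes the whole pair out of the blocked comparison. Losses from both libraries of such a mouse are thus not separate cases, here and in the counts of single libraries below.

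Adipocyte genes were lower in tumors as well. The summed level of 14 adipocyte genes was 72.6 to 145 CPM in tumors and 158 to 775 CPM in normal lungs, and 4 of the 10 adipocyte genes tested fell. The normal lung of mouse m368, with 1478 counts of the adipokine gene Adipoq, was also the highest normal lung for 11 of the 12 sterol enzymes that fell. Among the other normal lungs the order differed from gene to gene. It followed the adipocyte sum for Cyp51, while the normal lung of mouse m350, with the lowest sum, stood second of all normal lungs for Idi1, Fdps and Lss. With the adipocyte sum as a covariate 0 of the 34 genes and 0 of the 15175 genes passed by edgeR's test, and 11 of the 34 had an unadjusted p under 0.05. In that fit 16 of the 17 sterol enzymes still had log2 fold changes below 0, with a median of -1.17 and a median SE of 0.50, against -1.10 and 0.21 without the covariate. In mouse m335 the adipocyte sum was 129 CPM in the ADN tumor, 72.6 CPM in the ADC tumor and 195 CPM in the normal lung. Most of each sum came from Agpat2 (88.5, 38.7 and 104 CPM) and Lipe (33.1, 28.4 and 57.4 CPM). In that normal lung Adipoq and Lep had 0 counts, Plin1 stood at 0.113 CPM, Cfd at 0.567 CPM and Car3 at 19.3 CPM. Cfd was higher in the ADN tumor of this mouse, at 2.51 CPM, and in its ADC tumor, at 2.84 CPM. Car3 was lower in these tumors, at 0.535 and 0.101 CPM. Cidec, at 8.81 CPM in the normal lung, was lower too, at 2.31 and 0.101 CPM. So was Plin4, at 4.19 CPM in the normal lung and 1.34 and 0.912 CPM in the tumors. Endothelial genes were lower in tumors too: their sum was 601 to 1061 CPM in tumors and 2928 to 4838 CPM in normal lungs, and 9 of 10 fell. Of the alveolar type 1 genes 3 of 6 fell, of the fibroblast genes 4 of 9, and of the skeletal muscle genes 5 of 7, where 7.91% of all genes tested fell. The adipocyte sums of tumors and normal lungs did not overlap, so the fit with the covariate could not cleanly separate fat from tumor status. It cannot decide the part of fat in the sterol result. The part of the endothelial, alveolar type 1, fibroblast, skeletal muscle and alveolar macrophage cells was not tested.

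Of the 5 regulators of the branch only Insig1 passed. Insig1, which holds SCAP back and is itself induced by SREBP, had 14.4, 22.4 and 70.8 CPM in ADN tumors, 20.4, 79.3 and 38.2 CPM in ADC tumors and 61.4, 104, 99.8, 80.3 and 84.3 CPM in normal lungs. It was below the own normal lung in 6 of 6 tumors, by little in the ADC tumor that mouse m372 gave, and its log2 fold change was -1.20 ± 0.31 (adjusted p = 0.0417). Without the mouse as a block its call was lost, and it was also lost when any of 8 single libraries was left out.

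Insig2, the paralog of Insig1, had 32.4, 42.5 and 37.1 CPM in ADN tumors, 27.2, 43.5 and 48.8 CPM in ADC tumors and 25.8, 32.9, 36.3, 37.9 and 34.5 CPM in normal lungs. The groups overlapped, although no tumor was below its own normal lung, and the log2 fold change was 0.26 ± 0.14 (adjusted p = 0.3). Srebf1, which encodes the SREBP form best known for fatty acid genes, had 114, 141 and 213 CPM in ADN tumors, 58.1, 284 and 171 CPM in ADC tumors and 151, 113, 131, 115 and 139 CPM in normal lungs. Tumors spread to both sides of the normal lungs, lowest in the ADC tumor of mouse m335 and highest in that of mouse m372, with a log2 fold change of 0.26 ± 0.32 (adjusted p = 0.671).

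Srebf2, which encodes the form best known for sterol genes, had 145, 161 and 139.6 CPM in ADN tumors, 89.3, 176 and 134 CPM in ADC tumors and 185, 162, 200.0, 148 and 163 CPM in normal lungs. The groups overlapped, and the log2 fold change was -0.28 ± 0.21 (adjusted p = 0.449). Scap, the escort of both, had 81.1, 119 and 64.8 CPM in ADN tumors, 53.4, 72.2 and 53.8 CPM in ADC tumors and 129, 89.5, 84.4, 75.2 and 87.8 CPM in normal lungs. Its groups overlapped as well, with a log2 fold change of -0.38 ± 0.23 (adjusted p = 0.332). Transcript levels do not report the cleavage by which SREBP proteins are activated.

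**Figure D3:**
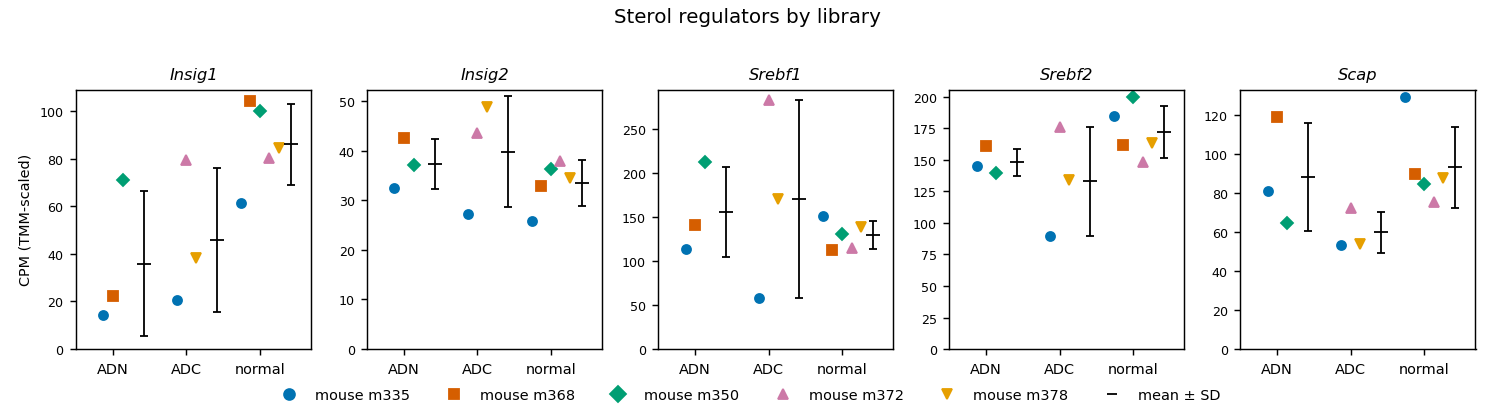
Level in CPM (y axis, from 0) of the 5 sterol regulators by library (x axis, ADN, ADC and normal), with the mouse as symbol and the group mean ± SD as bars (n = 3, 3 and 5). Insig1 is lower in tumors with a wide spread, 14.4 to 79.3 CPM, and the groups overlap in each of the 5 panels.

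In the fatty acid branch the enzymes went different ways. Me1 (chromosome 9, 86581363 to 86695914), the malic enzyme that supplies NADPH, had 304, 258 and 272 CPM in ADN tumors, 95.8, 304 and 294 CPM in ADC tumors and 66.4, 137, 90.5, 105 and 99.9 CPM in normal lungs. The tumors other than the ADC tumor of mouse m335 lay above every normal lung, and the log2 fold change was 1.45 ± 0.30 (adjusted p = 0.0164), or 2.73-fold higher. Its call was lost when any of 7 single libraries was left out, with the log2 fold change between 1.23 and 2.53 over all alternatives. Annotated copies of Me1 (3) are not rows of the count table, so reads from them may be counted here. The same holds for near-identical annotated sequences of Acaca, Hmgcs1, Fdft1, Elovl6 and Scap. That of Acaca is 99.2% alike over 6118 bases.

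The desaturases of polyunsaturated fatty acids were lower. Fads1 had 132, 109 and 99.3 CPM in ADN tumors, 59.6, 95.0 and 69.9 CPM in ADC tumors and 169.6, 254, 213, 161 and 194 CPM in normal lungs. No tumor reached the lowest normal lung, and the log2 fold change was -1.06 ± 0.24 (adjusted p = 0.0214). Fads2, its neighbor on chromosome 19, had 20.6, 40.1 and 19.6 CPM in ADN tumors, 15.4, 25.8 and 18.3 CPM in ADC tumors and 41.5, 50.3, 44.1, 35.7 and 40.0 CPM in normal lungs. The ADN tumor of mouse m368 fell within the range of normal lungs, and the log2 fold change was -0.88 ± 0.19 (adjusted p = 0.0193). The call of Fads1 was lost when any of 9 single libraries was left out and that of Fads2 when any of 5 was.

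The core of palmitate synthesis did not pass with all libraries. Acly, which makes cytosolic acetyl-CoA from citrate, ranged from 129 to 462 CPM in tumors and from 222 to 319.9 CPM in normal lungs, with a log2 fold change of 0.43 ± 0.30 (adjusted p = 0.413). Acaca, acetyl-CoA carboxylase, ranged from 50.7 to 221 CPM in tumors and from 67.4 to 123 CPM in normal lungs, at 0.78 ± 0.30 (adjusted p = 0.141). Fasn, fatty acid synthase, ranged from 317 to 1905 CPM in tumors and from 654 to 1197 CPM in normal lungs, at 0.31 ± 0.39 (adjusted p = 0.682). In each of these 3 genes the lowest library was the ADC tumor of mouse m335. Acss2, which makes acetyl-CoA from acetate, ranged from 8.28 to 44.4 CPM in tumors and from 21.3 to 46.0 CPM in normal lungs, at -0.62 ± 0.36 (adjusted p = 0.318).

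Among the elongases, Elovl5, which acts on polyunsaturated chains, was the 1 gene with every tumor above every normal lung, at 182 to 327 CPM in tumors and 143 to 179 CPM in normal lungs, with a log2 fold change of 0.51 ± 0.20 (adjusted p = 0.15). Elovl1, which makes very long saturated chains, ranged from 536 to 3105 CPM in tumors and from 791 to 1627 CPM in normal lungs, at 0.67 ± 0.41 (adjusted p = 0.349). Elovl6, which lengthens palmitate, ranged from 3.18 to 29.0 CPM in tumors and from 5.63 to 14.5 CPM in normal lungs, at -0.06 ± 0.45 (adjusted p = 0.949). The stearoyl-CoA desaturases did not pass either. Scd1 ranged from 2385 to 9011 CPM in tumors and from 3760.3 to 7523 CPM in normal lungs, at -0.38 ± 0.35 (adjusted p = 0.56). Scd2 ranged from 323 to 915 CPM in tumors and from 342 to 587 CPM in normal lungs, at 0.19 ± 0.23 (adjusted p = 0.671). Scd1 and Scd2 are 95.5% alike over 623 bases, so how their reads were divided is uncertain.

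**Figure D4:**
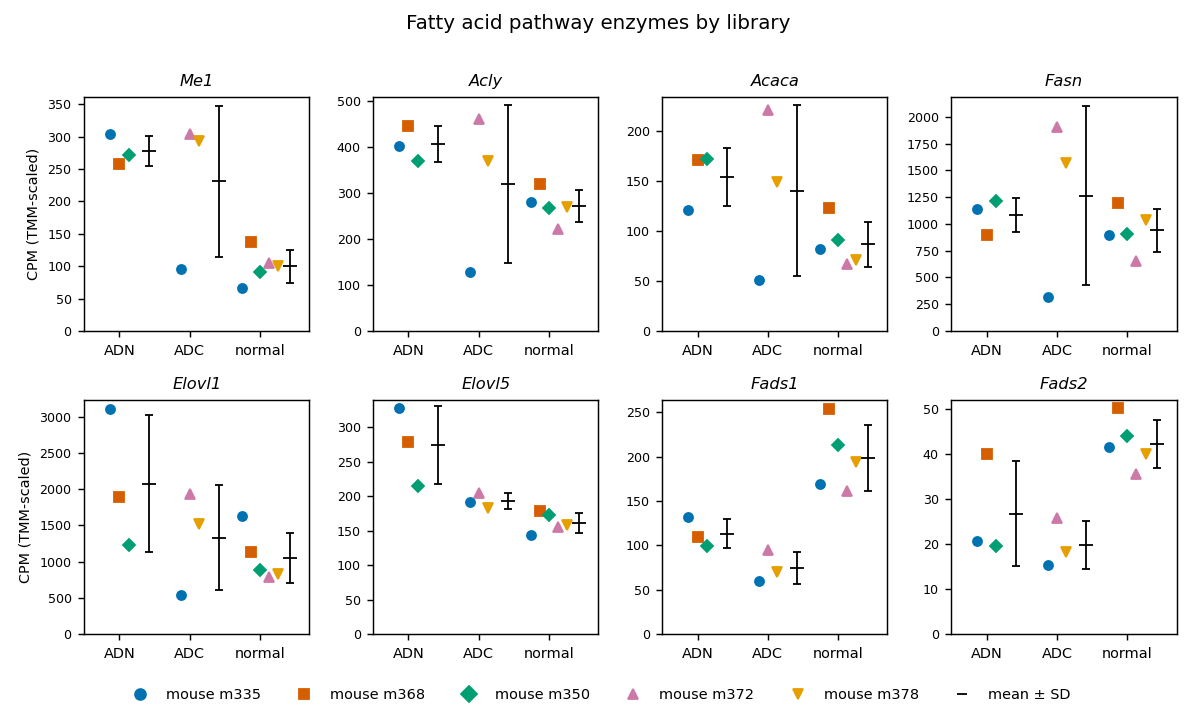
Level in CPM (y axis, from 0) of 8 fatty acid enzymes by library (x axis, ADN, ADC and normal), with the mouse as symbol and the group mean ± SD as bars (n = 3, 3 and 5). The ADC tumor of mouse m335 is the lowest tumor in all panels except Elovl5, where it reads 192 CPM, and Fads1 is lower in every tumor than in any normal lung.

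The ADC tumor of mouse m335 decided several of these calls. Against its own normal lung the 12 fatty acid enzymes had a median log2 difference of -0.91 in this tumor, and of 0.26, 0.07 and 0.28 in ADN tumors and 1.06 and 0.22 in the other ADC tumors. Without this tumor 5 of the 34 genes rose and 16 fell, where 9.58% of the 15106 genes then tested rose and 12.8% fell. The shares over all genes were thus higher as well, against 3.68% and 7.91% with it. The 5 genes that rose were Me1 at 1.60 ± 0.20 (adjusted p = 0.000734), Acaca at 0.99 ± 0.19 (adjusted p = 0.00739), Elovl1 at 0.91 ± 0.16 (adjusted p = 0.00393), Acly at 0.64 ± 0.15 (adjusted p = 0.0158) and Elovl5 at 0.60 ± 0.18 (adjusted p = 0.0443). Sc5d then fell too, at -1.24 ± 0.18 (adjusted p = 0.00158), and Fasn did not pass, at 0.54 ± 0.25 (adjusted p = 0.16). The same tumor had the low alveolar type 2 sum of 38160.3 CPM and the T cell sum of 471 CPM. Over all tumors 4 of 11 alveolar type 2 genes rose, and the part of this cell type in the fatty acid values was not tested.

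**Figure D5:**
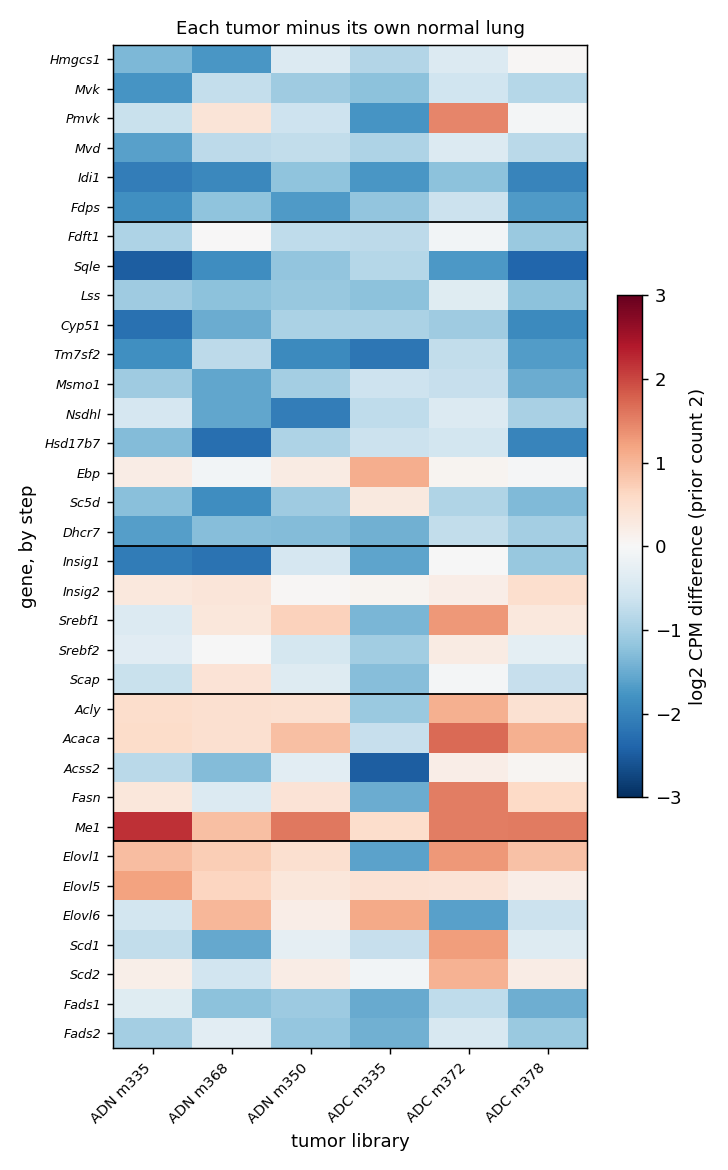
Log2 difference in CPM of each tumor (x axis) from its own normal lung, with a prior count of 2, for the 34 genes (y axis, grouped by step). Blue is lower and red higher in the tumor. The sterol rows are blue in nearly all columns, with medians from -1.35 to -0.59, and the fatty acid rows are mixed: Me1 and Elovl5 are red and Fads1 and Fads2 blue in all 6 columns, and the ADC tumor of mouse m335 has the lowest median, -0.91.

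ADN tumors on their own had 11 of the 34 genes past the threshold, 10 lower (29.4%) and 1 higher (2.94%), against 4.84% lower and 2.68% higher of all genes tested. The 10 were the sterol enzymes Mvk, Mvd, Idi1, Fdps, Sqle, Lss, Cyp51, Msmo1, Sc5d and Dhcr7, and Me1 was the higher gene. Sqle had -2.01 ± 0.41 (adjusted p = 0.027), Idi1 -1.75 ± 0.26 (adjusted p = 0.0114) and Me1 1.75 ± 0.35 (adjusted p = 0.0247). The count was 6 without the normal lung of mouse m335, 3 without either library of mouse m368, 1 without either library of mouse m350 and 0 without the ADN tumor of mouse m335, where no gene of the table passed and 17 of the 34 had an unadjusted p under 0.05. Leaving out the ADC tumor of m335 gave 16.

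ADC tumors had 3 lower genes (8.82%) and 0 higher, against 3.98% lower and 1.01% higher of all genes tested, and 15 of the 34 had an unadjusted p under 0.05. Idi1 had -1.60 ± 0.26 (adjusted p = 0.014), Dhcr7 -1.05 ± 0.21 (adjusted p = 0.0326) and Fads1 -1.36 ± 0.29 (adjusted p = 0.0391). The count went up to 12 without the mouse as a block and was 11 by DESeq2. When the ADC tumor of m335 was left out it became 6, of which Acaca, Elovl1 and Me1 were higher and Cyp51, Idi1 and Sqle lower, and Dhcr7 and Fads1 no longer passed. Fads1 lost its call in this comparison whichever of the 11 libraries was left out. The count was 0 without either library of mouse m378 (10 at an unadjusted p under 0.05), and 1 without either library of mouse m350 or m372, the normal lung of mouse m335 or its ADN tumor.

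The tumor kinds were also compared with each other. In ADC against ADN tumors 0 of the 34 genes passed by edgeR, where 0.0% of all genes did in either direction, and 1, Sc5d, had an unadjusted p under 0.05. Its log2 fold change was 0.99 ± 0.42 (adjusted p = 0.76), the lowest adjusted p of the 34. DESeq2 also called 0 of the 34 genes, and 56 higher and 73 lower genes of the whole table. The log2 fold changes of the 34 genes ran from -0.83 (Elovl1) to 0.99 (Sc5d), with SE from 0.25 to 0.77. With the ADC tumor of m335 left out, Elovl1 had 0.32 ± 0.31, Sc5d 0.23 ± 0.38 and Fasn 0.90 ± 0.42, against -0.22 ± 0.73 for Fasn with it. The sterol enzymes had a median of 0.40, with Idi1 at 0.14 ± 0.32 (adjusted p = 0.937). Only mouse m335 gave both kinds, and the comparison comes from the shared fit. A p above the threshold does not show that the kinds are alike.

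Neighboring lipid pathways were read from lists of other genes. In tumors against normal lungs 0 of 7 genes of the liver X receptor and sterol export passed by edgeR, and 0 had an unadjusted p under 0.05. Of 8 other regulators of lipid synthesis 1 fell (12.5%), where 7.91% of all genes tested fell. It was Thrsp, a lipogenic nuclear protein, at -2.38 ± 0.58 (adjusted p = 0.0317). It ranged from 1.57 to 4.68 CPM in tumors, and in normal lungs from 4.79 CPM in mouse m335 to 35.9 CPM in mouse m368, whose lung had the highest adipocyte sum.

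Of 10 other genes of fatty acid activation and elongation 2 rose and 1 fell. Acsl4, which activates polyunsaturated fatty acids, rose at 1.30 ± 0.29 (adjusted p = 0.0213), and Elovl7, an elongase, at 1.19 ± 0.23 (adjusted p = 0.0123). Acacb, the carboxylase whose malonyl-CoA restrains fatty acid oxidation, fell at -1.76 ± 0.42 (adjusted p = 0.0286), with 3.68 to 22.8 CPM in tumors and 26.5 to 43.3 CPM in normal lungs. Of 15 genes of fatty acid oxidation 1 rose (6.67%), where 3.68% of all genes tested rose. It was Acadl, an acyl-CoA dehydrogenase, at 0.84 ± 0.19 (adjusted p = 0.0215). With so few genes in a list, a single call is not a result about the list. The median log2 fold change was 0.23 for the oxidation list and -0.03 over all genes tested.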

How the data were processed

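RNA of 6 tumors and 5 normal lungs was sequenced on an Ion Proton instrument from poly-A libraries, per the labels' protocols. STAR 2.4.1d, Bowtie2 2.1.0, Partek and the build mm10 (GRCm38) are named, per the submitters' processing notes; what each tool did, and whether strand was used, is not given in the sources used here. The authors deposited expected counts for 36285 RefSeq transcripts, not normalized. Here they were summed to 24515 gene symbols and rounded; 78.4% to 86.2% of the sums were whole within 0.01.

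filterByExpr kept 15175 genes, with 99.9% of counts. Libraries (19938822 to 46987587 counts) were scaled by TMM, and the robust quasi-likelihood model of edgeR 4.0.16 (R 4.3.3) was fitted, with the mouse as a block; ADN, ADC and normal were compared in a fit of 3 groups. P-values were adjusted by Benjamini-Hochberg over the 15175 genes, and the threshold was 0.05. SE is the absolute log2 fold change over the square root of F. The scripts were tested on simulated data. The 11 libraries came from 5 mice: m335 gave 3 and each other mouse 2, a tumor and a normal lung. Alternatives were no block, library totals, no filter, DESeq2 1.42.0, no robust estimation, an adipocyte covariate (log2 of the summed CPM) and leaving out libraries.

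The pairing comes from the mouse identifiers. Deviations from the group means correlated between a tumor and its own normal lung at 0.240, 0.109 and 0.00493 for the ADN tumors and -0.0444, -0.0367 and 0.254 for the ADC tumors.

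The 34 genes and all lists were chosen with earlier results of these data known. All 34 are named, in full where they passed in any comparison or are regulators; from other lists up to 4 genes that passed in tumors were eligible. Promoters are from RefSeq GRCm38.p6. The result of 1 other list is not reported here.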

Additional observations from a re-analysis of the deposited data

Results flagged for a closer look

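Among the 34 genes, the level of a single library stood far from its group in 10 of 68 tests, made in the 6 tumors and in the 5 normal lungs of each gene. In each, the gap to the nearest library divided by the range of the group was above the critical value of Dixon's test. Chance alone flags about 1 in 20 groups.

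The normal lung of mouse m368 was the high library for 4 sterol enzymes: Hmgcs1 at 148 CPM, Cyp51 at 112 CPM, Msmo1 at 116 CPM and Hsd17b7 at 18.8 CPM. This library also had the highest adipocyte sum, 775 CPM, and the highest alveolar macrophage sum, 9573 CPM. The part of fat or of macrophages in these values was not tested. Another normal lung, that of mouse m335, was high for Scap at 129 CPM.

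The ADC tumor of mouse m335 was the far library for 4 genes. It was high for Ebp at 76.7 CPM and Sc5d at 26.6 CPM, and low for Acly at 129 CPM and Me1 at 95.8 CPM. It also had the lowest alveolar type 2 sum and the highest T cell sum of the 11 libraries. The ADN tumor of mouse m368 was high for Fdft1 at 83.5 CPM, the same level as in its own normal lung.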

How the results depend on the processing

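In tumors against normal lungs 16 of the 34 genes passed, and 17 did without the replicate block, 19 under library totals, 16 without a filter, 19 by DESeq2 and 16 without robust estimation. Over all genes 904 rose and 1338 fell without the replicate block, and 1287 rose and 1999 fell by DESeq2, against 558 and 1201 in the main fit. With the adipocyte covariate 0 of the 34 genes passed in each comparison. The log2 fold changes of Mvk, Mvd and Idi1 in tumors were then -1.53 ± 0.40, -1.25 ± 0.42 and -1.52 ± 0.44, against -0.98 ± 0.19, -0.83 ± 0.19 and -1.67 ± 0.18. Other genes that passed varied more in size. Some came closer to no change. Over all alternatives, the adipocyte covariate included, the log2 fold change in tumors ran from -1.26 to -0.39 for Fads1. It ran from -1.46 to -0.59 for Insig1 and from -1.5 to -0.75 for Hsd17b7. Leaving out 1 library gave 9 to 21. In ADN tumors, against 11, the count was 13 without the replicate block, 17 under library totals, 17 by DESeq2, and 0 to 16 with 1 library left out. In ADC tumors, against 3, it was 12 without the replicate block, 8 under library totals, 11 by DESeq2, and 0 to 6 with 1 library left out. In ADC against ADN tumors it was 0 under every alternative. Leaving out the normal lungs of mice m368 and m372 together, chosen after seeing the data, gave 7 in tumors, 1 in ADN tumors and 0 in ADC tumors. Library totals moved the median log2 fold change of all genes to -0.22 in tumors, and 359 genes were then higher and 1712 lower, against 558 and 1201 with TMM.

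None of the 16 genes changed sign under any alternative. Of the 18 that did not pass, 6 changed sign under some alternative (Pmvk, Srebf1, Acss2, Elovl6, Scd1 and Scd2). The cause of these changes was not tested. The fits that leave libraries out also hold fewer of them. With 3 tumors of each kind, single libraries decide many calls.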
